A study of Mus musculus with 120 samples.

Results

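Toll-like receptors are membrane proteins that recognise conserved microbial molecules and, in some settings, nucleic acids from damaged host cells. The family reported here comprised 10 mouse genes, Tlr1 to Tlr9 and Tlr13, chosen by gene symbol from the 55487 genes listed in both count tables, and all 10 were found and passed the filter on low counts in every comparison. Tlr1, Tlr2, Tlr4, Tlr5 and Tlr6 act mainly at the cell surface, where Tlr2 pairs with Tlr1 or Tlr6 to bind bacterial lipopeptides, Tlr4 responds to lipopolysaccharide and Tlr5 to flagellin. Tlr3, Tlr7, Tlr8, Tlr9 and Tlr13 act in endosomes, where Tlr3 binds double-stranded RNA, Tlr7 and Tlr8 respond to single-stranded RNA or its breakdown products, Tlr9 binds unmethylated CpG DNA and Tlr13 recognises bacterial ribosomal RNA. Most of these receptors signal through the adaptor Myd88, whereas Tlr3 uses Ticam1 and Tlr4 uses both, and the signals lead to NF-kappaB and interferon regulatory factors. Macrophages, dendritic cells, neutrophils and B cells are well-known sites of expression, and Tlr3 and Tlr5 are also known from stromal and epithelial cells.

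The tissue was the immunological niche (IN), a microporous poly(e-caprolactone) scaffold placed under the skin of the back of female NOD/ShiLtJ or NOR/LtJ mice at 4 weeks of age and then removed and replaced in rotation from 6 weeks of age on. NOD mice develop autoimmune diabetes spontaneously, and NOR mice share their diabetogenic MHC haplotype but stay normoglycemic. The 120 total RNA libraries, depleted of ribosomal RNA, fell into 3 groups. NOR gave 23 INs from 5 mice aged 6, 10, 14, 18 and 22 weeks, all in sequencing batch 1. NOD nonprogressors, which kept glucose control, gave 39 INs. Of these, 20 came from 4 mice at the same 5 ages in batch 1, 13 from batch 2 at 6 weeks (7 mice) and 14 weeks (6 mice), and 6 batch 1 INs were labelled only by 31, 38 or 108 days after implantation, were not linked to a mouse and entered no test. NOD progressors, which had 2 consecutive glucose readings above 250 mg/dl, gave 58 INs from 10 mice at 6 weeks of age, at 7, 5, 3 and 1 weeks before onset and at onset. Each of these times held 10 INs, 5 in each batch, except −7 weeks, where 8 INs were all in batch 2. These 8 came from mice 1 to 4, 6, 7, 9 and 10. All other INs of mice 1 to 4 were in batch 1. Times counted back from onset correspond to different ages in different mice. INs taken at 6 weeks of age came from the first implantation, whereas later INs could be replacements in sites operated on before. In every contrast of 6 weeks with a later time, age or onset cannot be told apart from this implant history. All groups shared the surgeries, with isoflurane and carprofen, and the labels name no other agent and no transgene.

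Batch 1 libraries held 4722396 to 56185434 counts and batch 2 libraries 29029239 to 43880986. The NOR library of mouse 5 at 18 weeks stood apart, with 85.7% of its counts on a single ribosomal RNA gene. In it Tlr1 had only 5 counts and Tlr9 had 0, which allows up to 3 counts or 2.73 CPM (counts relative to library size, which was scaled within each batch by the trimmed mean of M values, TMM). Results that use this library are given with and without it where that changes a call. The small structural RNAs Rn7s1, Rn7s2 and Rn7sk took 17.1% to 38.7% of the counts in the 4 nonprogressor INs at 22 weeks, against 2.81% to 5.9% in the same mice at 6 weeks, and their part in the results at 22 weeks was not tested. In batch 1 they were also higher, without overlap, in nonprogressors at 14 weeks (7.14% to 13.2%) and in progressors at onset (6.49% to 17.8%, against 0.911% to 4.56% at 6 weeks). Macrophage markers were abundant at every time, with summed levels at 6 weeks of 3970 to 5820 CPM over 10 genes in NOD INs of batch 1.

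Tlr13 was the most abundant receptor per length of transcript in every IN. Its level in batch 1 had a median of 38.4 CPM per kilobase of exon (range 17.1 to 65.0) and exceeded that of Tlr8, the next in order, in 74 of 74 INs. Without the length correction, Tlr13 accounted for a median of 47.9% of the CPM summed over the 10 receptors in batch 1 and 45.3% in batch 2. The order of the next genes was less fixed. Tlr8 had a median of 10.1 CPM per kilobase, Tlr2 8.96 and Tlr4 8.27, and Tlr8 exceeded Tlr2 in 50 and Tlr2 exceeded Tlr4 in 43 of the 74 INs, so these neighbours did not separate beyond their spread. Tlr7 followed with a median of 6.2 CPM per kilobase, Tlr1 with 3.84 and Tlr6 with 3.58. Tlr9 (median 2.22) and Tlr3 (1.81) lay close together, and Tlr5 was lowest with 0.933 CPM per kilobase. The order in batch 2 was the same except that Tlr4 and Tlr2, and Tlr3 and Tlr9, changed places. The other mouse receptor genes, Tlr11 and Tlr12, were near the detection limit, with median levels of 0.091 and 0.0517 CPM per kilobase in batch 1.

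**Figure D1:**
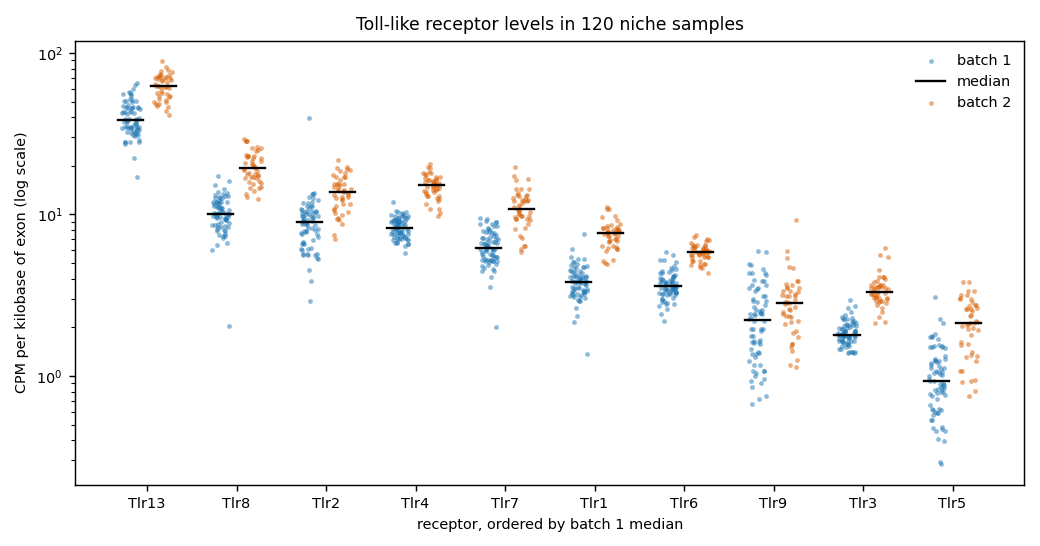
Level of each receptor in each IN, in CPM per kilobase of exon on a log axis, ordered by the batch 1 median. Blue points are the 74 INs of batch 1 and orange points the 46 INs of batch 2; black bars are medians, and a Tlr9 value of 0 in the NOR library rich in ribosomal RNA is not drawn. Tlr13 lies above all other receptors, at a median of 38.4 in batch 1 and 62.6 in batch 2.

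Levels were higher in batch 2 for 9 of the 10 receptors. In progressors at 6 weeks of age, the ratio of the batch 2 to the batch 1 median CPM was 2.3 for Tlr4, 2.17 for Tlr1, 2.55 for Tlr5 and 1.49 to 2.03 for Tlr2, Tlr3, Tlr6, Tlr7, Tlr8 and Tlr13, but 0.99 for Tlr9. Nonprogressors at 6 weeks gave 1.01 for Tlr9 and 1.61 to 3.25 for the others. No level was therefore compared across batches, and fits over both batches had a batch term.

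The receptors also varied to different degrees. Tlr9, Tlr5 and Tlr2 spread most in batch 1, with coefficients of variation of 54.0%, 48.4% and 46.9% over the 74 INs. The Tlr2 value rested on 1 library, NOR mouse 4 at 18 weeks with 119 CPM, and was 27.5% without it. Tlr4 spread least, with 14.4%. In batch 2 the values were 47.4% for Tlr9, 38.4% for Tlr5 and 12.2% for Tlr6, the steadiest receptor there.

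On GRCm38, Tlr1 (chromosome 5, 64924679 to 64933563) and Tlr6 (chromosome 5, 64952031 to 64960097) are neighbours on the minus strand, as are Tlr8 (chromosome X, 167242696 to 167264329) and Tlr7 (chromosome X, 167304929 to 167330558). Tlr13 lies elsewhere on X (106143204 to 106160493, plus strand). Tlr2 lies on chromosome 3 (83836272 to 83841767, minus), Tlr3 on 8 (45395665 to 45411080, minus), Tlr4 on 4 (66827584 to 66930284, plus), Tlr5 on 1 (182954788 to 182976044, plus) and Tlr9 on 9 (106222598 to 106226883, plus). Tlr1 and Tlr6 transcripts shared 454 stretches of 50 bases, which is 13.6% of those in Tlr1 and 12.3% of those in Tlr6, with a longest identical run of 229 bases. No other pair of members shared such a stretch. Reads from these runs can be divided between Tlr1 and Tlr6 only by estimation, so the levels of both carry this uncertainty. Tlr3 overlaps an antisense gene, Gm45542, over 698 bases, and the sources used here do not say whether counting used strand.

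Promoter windows of 250 bases before the start were at hand from RefSeq (GRCm38.p6) for 8 of the 10 receptors, with no window for Tlr4 or Tlr7. They were searched on both strands for 4 motifs. Matches stood in a window of Tlr1, Tlr3, Tlr6, Tlr8, Tlr9 and Tlr13. Tlr2 and Tlr5 held none. The share of all windows with a match to any of the 4 motifs was not computed. The windows of 3 of these 5 receptors are shown, those that overlap no annotated exon of GENCODE M21 (the Tlr3 and Tlr13 windows do). Each runs 5′ to 3′ on the strand of the gene with matches in capitals. The Tlr6 window is the one of its pair of windows that held matches to the core of the interferon-stimulated response element (GAAA, any 2 bases and again GAAA). This window lies inside the annotated Tlr6 gene (64952031 to 64960097), before an internal start. The other Tlr6 window (64960049 to 64960298), at the annotated 5′ end of the gene, held no match. The Tlr8 window held GAGGAA, a core bound by PU.1, and the Tlr9 window held GAGGAA and TGANTCA, the AP-1 motif.
Tlr6 (chr5:64959167-64959416, minus strand): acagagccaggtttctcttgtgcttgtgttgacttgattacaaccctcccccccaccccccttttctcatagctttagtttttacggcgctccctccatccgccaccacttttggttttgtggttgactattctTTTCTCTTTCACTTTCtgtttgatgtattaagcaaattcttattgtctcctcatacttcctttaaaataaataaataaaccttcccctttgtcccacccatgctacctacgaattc
Tlr8 (chrX:167264330-167264579, minus strand): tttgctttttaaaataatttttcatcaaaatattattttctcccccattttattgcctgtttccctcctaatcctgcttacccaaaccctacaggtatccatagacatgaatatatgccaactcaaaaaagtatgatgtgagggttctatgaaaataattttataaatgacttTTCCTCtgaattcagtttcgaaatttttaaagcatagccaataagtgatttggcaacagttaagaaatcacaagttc
Tlr9 (chr9:106222348-106222597, plus strand): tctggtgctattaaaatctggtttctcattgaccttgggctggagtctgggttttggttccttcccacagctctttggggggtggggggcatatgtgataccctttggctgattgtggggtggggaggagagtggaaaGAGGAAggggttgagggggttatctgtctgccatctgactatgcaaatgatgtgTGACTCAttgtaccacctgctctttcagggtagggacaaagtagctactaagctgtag
The Tlr6 matches began 116 and 110 bases before that internal start and overlapped each other. Such a match stood in 2.98% of all 32851 windows and in no other member. GAGGAA stood in 23.3% of all windows and, among members, in Tlr1, Tlr8, Tlr9 and Tlr13. TGANTCA stood in 6.75% and only in Tlr9 among the members. For NF-kappaB only the form GGGA, any 2 bases and TTCC was searched. That form stood in 1.21% of all windows and in Tlr3 alone among the members. Other forms of the NF-kappaB motif were not searched, so windows without this form may still hold the motif. A match describes the letters in the window and was not tested as a binding site.

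The comparison of strains asked whether receptor levels separate NOD from NOR mice, with all dated INs of a mouse in batch 1 summed so that the mouse is the replicate. None of the 10 receptors passed an adjusted p of 0.05 in edgeR's quasi-likelihood test with Benjamini-Hochberg adjustment over 23387 genes, of which 8.92% passed. At an unadjusted p under 0.05 there were 2, Tlr3 and Tlr1. Tlr3, the sensor of double-stranded RNA, had mean levels per mouse of 8.4, 8.85 and 9.69 CPM in NOR (lowest, median and highest of 5 mice) and 8.82, 9.92 and 11.2 CPM in NOD (9 mice). The groups overlapped, and NOD exceeded NOR by 0.17 ± 0.06 on the log2 scale (SE; adjusted p = 0.0761). DESeq2 passed it with an adjusted p of 0.0296, as did edgeR without nonprogressor mouse 4, with 0.0452. Tlr1 had a log2 difference of −0.20 ± 0.08 between NOD and NOR (adjusted p = 0.124). The other 8 receptors differed by −0.22 to 0.14, and the levels of NOD and NOR mice overlapped for all 10. The median log2 difference was −0.11 over the receptors and −0.002 over all genes tested. In the same fit 5 of 10 macrophage markers were lower in NOD and none higher, led by the complement gene C1qb (−0.88 ± 0.10, adjusted p = 2.94e-05).

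Among the partners of the receptors, none of 6 adaptors passed between strains. Of 13 co-receptors and chaperones Lrrc59 was higher in NOD (0.20 ± 0.03, adjusted p = 0.000685), and of 16 kinases and ligases Peli1 and Ikbkb were lower (−0.24 and −0.12). Among 8 transcription factors Irf7, which drives type I interferon genes downstream of Tlr7 and Tlr9, was higher in NOD (0.78 ± 0.20, adjusted p = 0.0295) and Irf3 lower (−0.13 ± 0.04, adjusted p = 0.0316). Tnip1, which restrains NF-kappaB signaling, was lower in NOD by −0.50 ± 0.07 (adjusted p = 9.26e-05), the first of 2 such calls among the 11 negative regulators tested. None of 13 tested target genes passed. Tlr11 was lower in NOD (−0.54 ± 0.13, adjusted p = 0.0186), at a median level of only 0.298 CPM over batch 1.

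The next question was whether the receptors differ between nonprogressors and future progressors at the age of 6 weeks. None of the 10 passed, nor did any of 20090 genes (0% called), and 980 genes but none of the receptors had an unadjusted p under 0.05. DESeq2 also passed none of the receptors. Log2 differences lay between −0.10 (Tlr9, 95% interval −0.52 to 0.32) and 0.11 (Tlr2, −0.07 to 0.29). Tlr13, for example, ran from 95.7 to 168 CPM in the 4 nonprogressors and from 121 to 149 CPM in the 5 progressors of batch 1. In batch 2 it ran from 200 to 313 CPM in 7 nonprogressors, with a median of 231, and from 202 to 333 CPM in 5 progressors, so that the groups overlapped in both batches.

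In progressors, the lipopeptide receptor Tlr6 and the RNA sensors Tlr8 and Tlr13 rose between 6 weeks of age and onset, and the nucleic acid sensors Tlr3 and Tlr9 fell. Tlr6, Tlr8 and Tlr13 rose by 0.30 to 0.37 on the log2 scale, Tlr3 fell by 0.36 and Tlr9 fell by 0.90. These 5 of 10 compare with 39.6% of 21279 genes called in either direction, 19.6% higher and 20% lower, so the share of receptors is near that of all genes. The F test over all 6 times passed 3 receptors, Tlr3, Tlr6 and Tlr13, against 35.5% of genes. Without mouse 4 or without mouse 6 it passed 1, Tlr6, which passed without each of the 10 mice in turn. Tlr3 (adjusted p = 0.0483 in the edgeR F test) stayed past the threshold only without mouse 3 or without mouse 7. Tlr13 was lost without mouse 3, 4 or 6.

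Tlr6, the partner of Tlr2 for diacylated lipopeptides, was measured at 12.9, 12.4, 10.4, 10.4 and 8.99 CPM at 6 weeks in mice 1 to 5 of batch 1. The same mice had 13.8, 12.1, 16.3, 14.6 and 14 CPM at onset, and the ranges overlapped only through the onset value of mouse 2. In batch 2, mice 6 to 10 had 18.4, 22, 18.1, 21.2 and 21.8 CPM at 6 weeks and 21.9, 21, 23, 27.2 and 27.9 CPM at onset. Tlr6 thus increased in 8 of 10 mice. The fitted rise was 0.30 ± 0.07 (log2, SE; edgeR adjusted p = 0.000882). It passed within batch 1 alone (0.37, adjusted p = 0.0312), within batch 2 alone (0.25, adjusted p = 0.0229) and without each mouse in turn.

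Tlr13, the receptor for bacterial ribosomal RNA, had 148, 144, 121, 149 and 122 CPM at 6 weeks and 181, 135, 166, 197 and 193 CPM at onset in mice 1 to 5. Mice 6 to 10 had 202, 333, 215, 222 and 245 CPM at 6 weeks and 305, 251, 291, 353 and 384 CPM at onset. Only mice 2 and 7 had lower values at onset. The rise was 0.36 ± 0.11 (adjusted p = 0.00706), with 0.36 within batch 1 (adjusted p = 0.0848) and 0.38 within batch 2 (adjusted p = 0.0369).

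Tlr8, a sensor of RNA breakdown products, had in batch 1 mice 39.5, 36.1, 30.4, 31.3 and 26.2 CPM at 6 weeks and 45.3, 34.9, 38.1, 47.1 and 40.4 CPM at onset. In batch 2 mice it had 55.8, 55, 62.2, 60.9 and 69.9 CPM and then 90.2, 60.3, 57.7, 92.5 and 105 CPM. Values were higher at onset in 8 of 10 mice, with mice 2 and 8 as the exceptions, and both batches overlapped between times. The rise of 0.37 ± 0.13 (adjusted p = 0.0206) kept its size within batches (0.34 and 0.41) but passed in neither, and it was lost without mouse 6 or without mouse 9 (adjusted p up to 0.0645).

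Tlr3 was lower at onset than at 6 weeks in all 10 progressors. Mice 1 to 5 had 11.7, 11.8, 9.39, 11.4 and 10.8 CPM at 6 weeks and 10.7, 10.9, 7.6, 9.76 and 9.62 CPM at onset. Mice 6 to 10 had 18.2, 15.6, 20.7, 18.5 and 32.3 CPM and then 15, 11.2, 12.9, 18.1 and 15.9 CPM. The decrease within a mouse was small in most animals, with a median of −0.24 on the log2 scale and a largest value of −1.0 in mouse 10. The fitted change was −0.36 ± 0.12 (adjusted p = 0.0103), and it did not pass without mouse 10 (−0.24, adjusted p = 0.075) or within batch 1 alone (−0.17, adjusted p = 0.304).

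Tlr9, the CpG DNA sensor, had 15.1, 8.44, 12.2, 10.4 and 11.6 CPM at 6 weeks and 7.82, 6.78, 2.97, 7.6 and 3.24 CPM at onset in mice 1 to 5, with no overlap between the times. In mice 6 to 10 it had 7.62, 4.38, 12.2, 11.5 and 16.3 CPM and then 9.98, 4.94, 4.07, 5.26 and 7.33 CPM, with overlap. It was lower at onset in 8 of 10 mice, and the exceptions, mice 6 and 7, were the 2 with the lowest values at 6 weeks in batch 2. The fitted change was −0.90 ± 0.29 (adjusted p = 0.0104), with −1.01 in batch 1 (adjusted p = 0.0706) and −0.72 in batch 2 (adjusted p = 0.157).

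**Figure D2:**
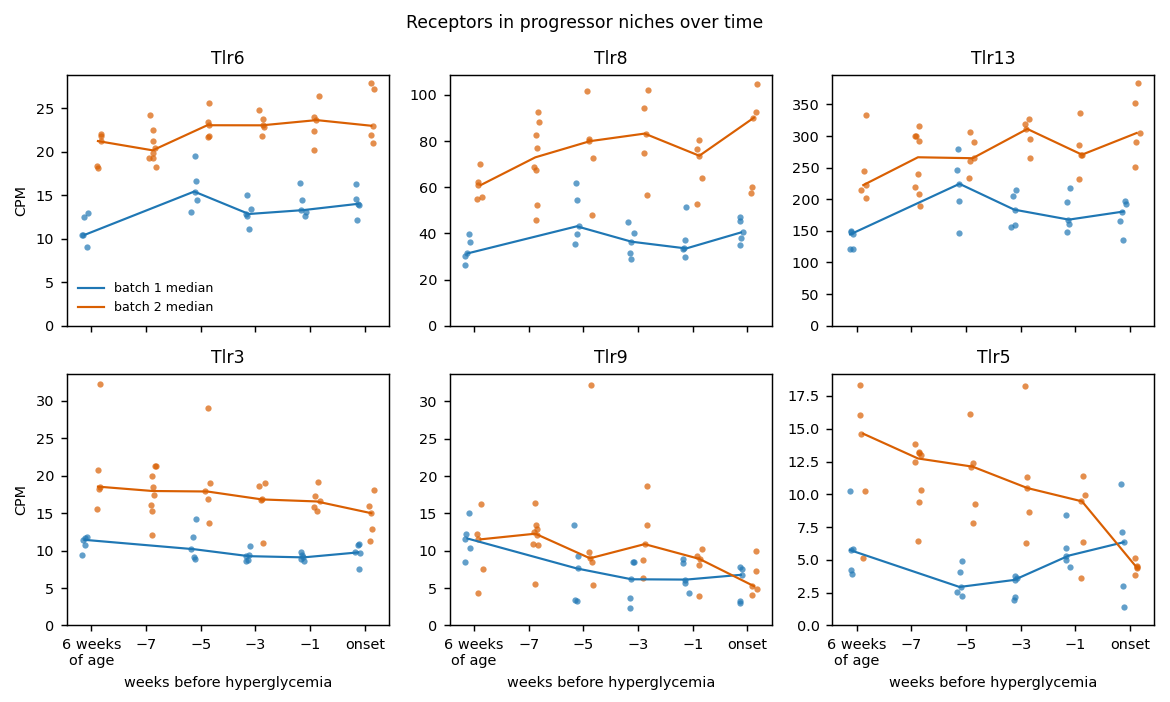
CPM of 6 receptors in progressor INs at 6 weeks of age and by weeks before hyperglycemia, with a point for each IN and lines through the medians of batch 1 (blue) and batch 2 (orange). Tlr6, Tlr8 and Tlr13 lie higher at onset than at 6 weeks and Tlr3 and Tlr9 lower. Tlr5 at onset lies between 3.84 and 5.12 CPM in batch 2 and between 1.41 and 10.8 CPM in batch 1. The −7 weeks samples were all in batch 2 and include mice 1 to 4, whose other samples were in batch 1.

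Between these ends the courses differed. Tlr6 and Tlr13 in batch 1 had their highest medians at −5 weeks, 15.4 and 224 CPM against 10.4 and 144 CPM at 6 weeks. In batch 2 the Tlr13 median went from 222 CPM at 6 weeks to 266 CPM at −7 weeks and 311 CPM at −3 weeks, and was 305 CPM at onset. The −7 weeks median included mice 1 to 4, which have no other INs in batch 2, so these medians do not follow one set of mice. Tlr9 in batch 1 went from a median of 11.6 CPM at 6 weeks to 7.63 at −5 weeks and 6.78 at onset. In batch 2 its median was still 10.9 CPM at −3 weeks and 5.26 CPM at onset. Single times between the ends were not tested against each other.

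The remaining 5 receptors did not pass between the ends. Tlr5, the flagellin receptor, behaved differently in the batches. In batch 1 it had 5.75, 10.2, 4.2, 5.86 and 3.94 CPM at 6 weeks and 7.09, 10.8, 1.41, 6.34 and 3 CPM at onset. Batch 2 mice had 16, 5.11, 14.6, 18.3 and 10.2 CPM at 6 weeks and 3.84, 4.37, 5.12, 4.54 and 4.43 CPM at onset, lower in all 5. The change was −0.06 in batch 1 (adjusted p = 0.932), −1.53 in batch 2 (adjusted p = 0.000262) and −0.66 ± 0.30 over both (adjusted p = 0.0743), and without mouse 1 or without mouse 2 it passed (adjusted p down to 0.02). The difference between batches was not tested. Tlr4, the lipopolysaccharide receptor, was higher at onset in batch 1 alone (0.42, adjusted p = 0.0279) and had −0.06 in batch 2. Tlr1 (−0.16 ± 0.12), Tlr2 (−0.25 ± 0.17) and Tlr7 (−0.25 ± 0.14) did not pass in either batch.

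**Figure D3:**
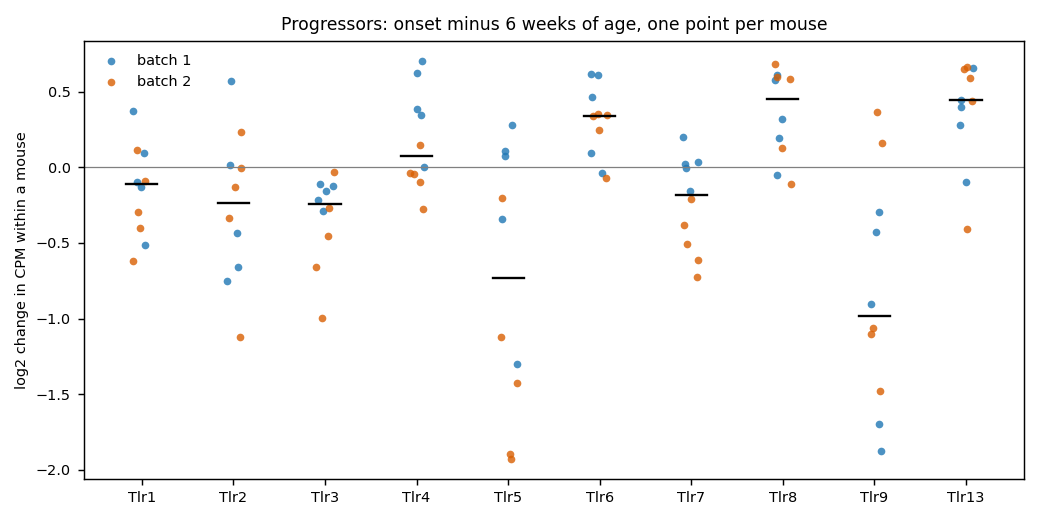
Log2 change in CPM from 6 weeks of age to onset for each receptor, with a point for each of 10 progressors (blue, batch 1; orange, batch 2) and a black bar at the median. Tlr3 lies below 0 in all 10 mice, and Tlr6, Tlr8 and Tlr13 lie above 0 in 8 of 10.

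Markers of other cells moved over the same interval. In whole INs, fewer cells of a type and less RNA per cell cannot be told apart. All 6 fibroblast markers were lower at onset, with summed levels of 43300 to 75700 CPM at 6 weeks and 6550 to 19800 CPM at onset in batch 2, and of 42200 to 78000 and 9060 to 39800 CPM in batch 1. Of 5 endothelial markers 4 were lower, and of 7 B cell markers 6 were higher, though their sum stayed at or below 72.4 CPM. Of 7 T cell markers 2 were higher and none lower, and their sums were 9.42 to 22.6 CPM at 6 weeks and 6.9 to 12.1 CPM at onset in batch 1 and 5.08 to 12.3 and 7.25 to 25.5 CPM in batch 2. Of 6 monocyte markers 1 was higher and 2 lower, with sums of 174 to 552 and 294 to 613 CPM in batch 1 and of 758 to 1290 and 271 to 857 CPM in batch 2. Of 7 plasmacytoid dendritic cell markers 1 was higher and 2 lower, with sums of 71.2 to 105 and 105 to 132 CPM in batch 1 and of 92.1 to 154 and 143 to 196 CPM in batch 2. Of 10 macrophage markers 1 was higher and 1 lower, and the macrophage sums were 4140 to 5820 CPM at 6 weeks and 4660 to 5950 CPM at onset in batch 1 and 7130 to 9800 and 7750 to 10400 CPM in batch 2. The conventional dendritic cell sum was 383 to 911 CPM at 6 weeks and 1260 to 1890 CPM at onset in batch 2, and 474 to 653 and 473 to 1130 CPM in batch 1 with overlap, although only 1 of its 6 markers was higher and 1 lower by the test. No marker of these lists was at 0 in any of these groups. The share of Rn7s1, Rn7s2 and Rn7sk, separate between the times in batch 1, overlapped in batch 2 (3.35% to 4.93% and 0.216% to 7.42%). The part of these markers and RNAs in the receptor changes was not tested.

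Downstream of the receptors, adaptors and transcription factors moved in both directions at onset, where 39.6% of all genes were called. The lists had called shares on either side of this background, and no list was tested against it. Of 6 adaptors, Tirap (−0.41 ± 0.06, adjusted p = 9.18e-07) and Myd88 (−0.46 ± 0.08, adjusted p = 5.39e-06) were lower. Myd88 is the adaptor of most of the family. Ticam2, the bridge from Tlr4 to Ticam1, was higher (0.49 ± 0.10, adjusted p = 0.000216). Of 8 transcription factors 3 rose and 2 fell, with Rel at 0.47, Irf8 at 0.58 and Irf7 at −1.90 ± 0.39 (adjusted p = 0.000111). Of 16 kinases and ligases 5 rose and none fell, led by Ikbkb (0.30 ± 0.04), Ikbkg (0.27) and Traf6 (0.33). Of 13 co-receptors and chaperones 3 rose and 3 fell, with the endosomal trafficking factor Lrrc59 at −0.41, the lipopolysaccharide binding protein Lbp at −1.87 ± 0.46 (adjusted p = 0.00104) and the scavenger receptor Cd36 at 0.54. Among 11 tested negative regulators 4 rose and 1 fell, with Zc3h12a, an RNase that degrades cytokine messages, at 0.67 ± 0.10 (adjusted p = 3.33e-07), Cyld at 0.26 and Tollip at 0.35. Of 13 tested target genes 2 rose and 3 fell, with the chemokines Cxcl10 at −2.11 ± 0.48 (adjusted p = 0.000454) and Ccl3 at −0.74, and Tnf at 0.73 ± 0.17 (adjusted p = 0.000658).

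Nonprogressors gave the comparison over age, with the implant history that goes with it, in NOD mice without onset. In the 20 INs of batch 1, 2 receptors passed the F test over 5 ages (Tlr3 and Tlr7), against 13.5% of genes. When each of the 4 mice was left out in turn, neither passed in any of these fits. Between 22 and 6 weeks, 3 receptors passed as lower, Tlr3, Tlr7 and Tlr9, and none passed as higher. This compares with 21.4% of 19715 genes called, 11.6% higher and 9.73% lower. Tlr6 (0.455, edgeR adjusted p = 0.0846) and Tlr13 (0.527, adjusted p = 0.0647) had positive changes that did not pass, each with 3 of 4 mice higher. These estimates were no smaller than the rises of both receptors in progressors. Tlr9 had 12.8, 6.75, 15.9 and 9.6 CPM at 6 weeks in mice 1 to 4 and 3.72, 2.62, 4.77 and 4.08 CPM at 22 weeks, with no overlap. It fell by 1.56 ± 0.41 on the log2 scale (adjusted p = 0.0118). Tlr3 had 15.4, 10.2, 12.9 and 10.8 CPM at 6 weeks and 9.68, 8.41, 7.36 and 7.62 CPM at 22 weeks, again without overlap, and fell by 0.56 ± 0.14 (adjusted p = 0.00752). Tlr7, the single-stranded RNA sensor, had 31.7, 26.2, 35.5 and 24.5 CPM and then 24.8, 22.8, 14.6 and 18.2 CPM, overlapping slightly, and fell by 0.54 ± 0.17 (adjusted p = 0.0283). These calls depended on single mice. Without mouse 1 or without mouse 4 only Tlr3 passed, without mouse 3 Tlr6 and Tlr9 passed, and without mouse 2 Tlr2 passed in addition to the 3. DESeq2 passed 5 receptors, adding Tlr5 and Tlr13. The fibroblast sum was 31100 to 47800 CPM at 6 weeks and 13600 to 37700 CPM at 22 weeks, with 4 of 6 markers lower. The T cell sum was 8.72 to 18 CPM and 3.81 to 10.3 CPM, with none of its 7 markers past the test.

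The 14-week INs allowed the same question in both batches, in a contrast added after the data were seen. Tlr3, Tlr5, Tlr7 and Tlr9 were lower at 14 than at 6 weeks, and none was higher, against 29.7% of genes called, 13.9% higher and 15.7% lower. Tlr3 was lower in 9 of 10 mice and changed by −0.48 ± 0.09 (adjusted p = 0.000148), past the threshold within batch 1 (−0.56, adjusted p = 0.024) and within batch 2 (−0.40, adjusted p = 0.0159). Tlr7 changed by −0.53 ± 0.13 (adjusted p = 0.0032), with −0.78 within batch 2 (adjusted p = 0.00203), where levels ran from 45.1 to 80 CPM in 7 INs at 6 weeks (median 51.6) and from 24 to 40 CPM in 6 INs at 14 weeks (median 34.1), without overlap. In batch 1 its change was −0.07 (adjusted p = 0.852). Tlr5 changed by −0.67 ± 0.21 (adjusted p = 0.0164), with −0.45 in batch 1 (adjusted p = 0.577), and in batch 2 went from 10.3 to 15.3 CPM at 6 weeks (median 14.3) to 5.94 to 9.99 CPM at 14 weeks (median 7.49), also without overlap. Tlr9 changed by −0.72 ± 0.23 (adjusted p = 0.0174) over both batches and passed in neither alone. Tlr4 passed within batch 2 alone (−0.40, adjusted p = 0.00203), with 0.26 in batch 1. In batch 2 the fibroblast sum went from 43500 to 77300 CPM at 6 weeks to 14500 to 32200 CPM at 14 weeks, and all 6 fibroblast markers were lower. Of 6 monocyte markers 3 were lower, with sums of 851 to 1230 and 175 to 770 CPM in batch 2 and of 260 to 288 and 301 to 584 CPM in batch 1. Of 5 adipocyte markers 4 were higher, with sums of 39.5 to 58.2 and 19.6 to 730 CPM in batch 2 and of 40.7 to 272 and 30.1 to 828 CPM in batch 1. Of 7 T cell markers 3 were higher, with sums of 6.92 to 19.6 and 12 to 22.4 CPM in batch 2 and of 8.72 to 18 and 8.13 to 12.3 CPM in batch 1. The share of the small structural RNAs did not overlap in batch 1, as given above, and in batch 2 it was 3.01% to 5.78% and 2.76% to 7.17%. Their part in the receptor changes was not tested.

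In NOR mice no receptor passed either the F test over 5 ages (8.23% of 19628 genes called) or the contrast of 22 with 6 weeks (1.04% called). At an unadjusted p under 0.05 the F test had 2 receptors, Tlr6 and Tlr8, which DESeq2 passed, and the contrast had none. Without the library rich in ribosomal RNA, edgeR passed Tlr8 in the F test. Tlr4, Tlr6 and Tlr13 were higher at 22 than at 6 weeks in 4 of 4 NOR mice, with fitted changes of 0.21, 0.21 and 0.11. Tlr3 was lower in 4 of 4. Tlr5 in NOR mice had 5.07, 4.76, 3.71 and 4.27 CPM at 6 weeks (mice 1, 2, 4 and 5) and 8.46, 7.3, 5.11, 5.59 and 8.41 CPM at 22 weeks (mice 1 to 5), higher at 22 weeks in 4 of 4 mice with both ages and without overlap. Its log2 change was 0.66 ± 0.32 (adjusted p = 0.493). In nonprogressors Tlr5 had 4.32, 4.01, 4.45 and 8.69 CPM at 6 weeks and 1.36, 2.83, 2.84 and 2.86 CPM at 22 weeks, lower in 4 of 4 mice, with a fitted change of −1.11 ± 0.42 (adjusted p = 0.0686). The ages between did not follow one course, since the NOR median was 3.48 CPM at 18 weeks and the nonprogressor median 6.65 CPM at 10 weeks. The test of the difference between these changes, with strain and age in the same fit, gave −1.75 ± 0.53 (p = 0.0023, adjusted p = 0.0867), and no receptor passed it, against 1.14% of 20647 genes. Tlr5 was the only receptor with an unadjusted p under 0.05 there. DESeq2 passed it (−1.75, adjusted p = 0.035), and the adjusted p ranged from 0.035 to 0.226 over the alternatives.

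**Figure D4:**
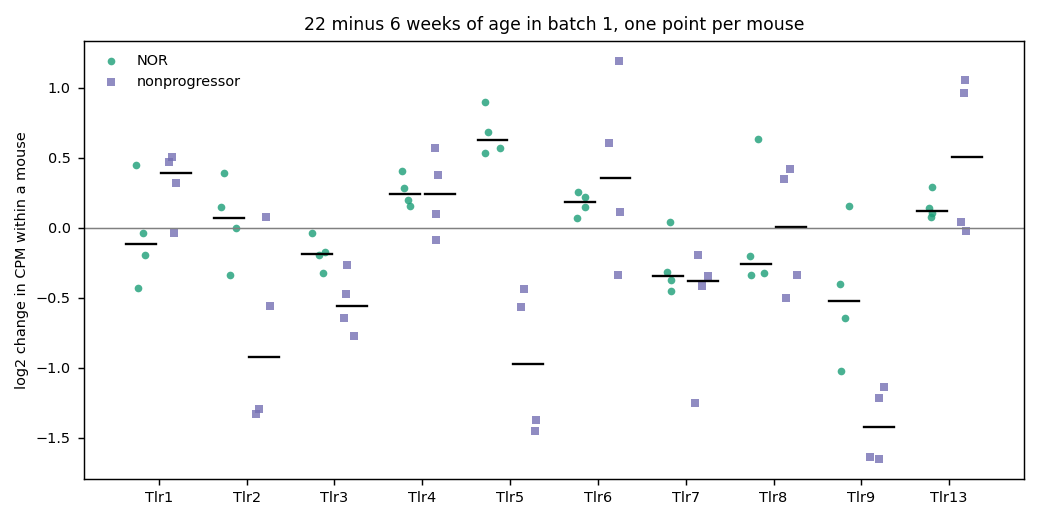
Log2 change in CPM from 6 to 22 weeks of age within each mouse of batch 1, for 4 NOR mice (green circles) and 4 nonprogressors (purple squares), with black bars at the medians. Tlr5 lies above 0 in all 4 NOR mice and below 0 in all 4 nonprogressors; Tlr3 lies below 0 in all 8.

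Whether progressors changed differently from mice that stayed normoglycemic was tested in batch 1, in contrasts added after the data were seen that set onset minus 6 weeks against the mean of 14, 18 and 22 weeks minus 6 weeks. Against nonprogressors no receptor passed, nor did any of 20687 genes (0% called), while Tlr3 (0.33, 95% interval 0.02 to 0.63) had an unadjusted p under 0.05 together with 2129 of all genes. The intervals were −0.35 to 0.39 for Tlr6 and −1.04 to 0.98 for Tlr9 on the log2 scale. Against NOR no receptor passed and none had an unadjusted p under 0.05, with 0.00484% of 20643 genes called. The interval for Tlr9 was −1.76 to 0.46.

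In nonprogressors, 22 against 6 weeks, 21.4% of all genes were called, 11.6% higher and 9.73% lower, and no pathway list was tested against these shares. The INs at 22 weeks were those rich in small structural RNAs, whose part was not tested. Of the 6 adaptors Tirap (−0.32) and Sarm1 (−1.30) were lower and Ticam2 (0.49) higher. Irf7 was the only called one of 8 transcription factors (−1.76 ± 0.45, adjusted p = 0.0111). Of 16 kinases and ligases 5 rose, led by Ikbke (0.64), Ikbkb (0.31) and Traf6 (0.64), and of 12 tested target genes 5 rose and Cxcl10 fell (−2.42 ± 0.62, adjusted p = 0.0109), with Tnf at 0.93 and Il1b at 2.56. Zc3h12a (0.99) and Tollip (0.56) rose among 11 tested negative regulators, and no co-receptor or chaperone passed. In NOR mice over the same ages, where 1.04% of all genes were called, 1 pathway gene passed. It was Il1rl1, the decoy-forming receptor for interleukin-33 (1.68 ± 0.29, adjusted p = 0.00549).

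Variation between INs of the same group was described by correlation after each group's mean log2 CPM had been removed, within batch. The points share libraries, depth and cell makeup, and no p is given. Without the library rich in ribosomal RNA (73 INs), the closest pairs in batch 1 were Tlr6 with Tlr13 (r = 0.80) and Tlr1 with Tlr8 (r = 0.76), and the same pairs had r = 0.82 and r = 0.78 over the 46 INs of batch 2. With that library the values in batch 1 were 0.58 and 0.86. Tlr7 and Tlr8, neighbours on X, had r = 0.40 in batch 1 and 0.82 in batch 2. Tlr5 ran apart from Tlr13 (r = −0.32 and −0.27).

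Each receptor had its own profile against the summed marker lists. A sum of CPM is weighted toward the most abundant markers of its list, and no r with single markers is given. Between 6 weeks and onset in progressors, 2 of 6 conventional and 2 of 7 plasmacytoid dendritic cell markers had positive changes. Both sums nevertheless reached higher values at onset in batch 2, so an r with a sum need not hold for the whole list. Tlr9 followed the T cell sum most (r = 0.83 in batch 1 without the library rich in ribosomal RNA, 0.87 in batch 2). It had 0.36 and 0.60 with the B cell sum, 0.42 and 0.50 with the neutrophil sum and 0.42 and 0.45 with the macrophage sum. Its values were 0.53 and 0.13 with the endothelial sum and −0.08 and 0.24 with the plasmacytoid dendritic cell sum. Tlr13 followed the conventional dendritic cell sum (0.73 and 0.61), as did Tlr6 (0.55 and 0.53). In batch 2 both also followed the plasmacytoid dendritic cell sum (0.62 for Tlr13 and 0.77 for Tlr6, against 0.32 and 0.38 in batch 1) and ran against the endothelial sum (−0.55 and −0.62). Tlr2 followed the macrophage sum (0.61 and 0.73) and, less closely, the T cell sum (0.51 and 0.59). With the neutrophil sum Tlr2 had 0.54 in batch 1 and 0.16 in batch 2. Tlr7 followed the macrophage sum as well (0.60 and 0.52) and had 0.06 and 0.58 with the T cell sum. Tlr5 followed the fibroblast sum (0.67 and 0.52) and ran against the conventional dendritic cell sum (−0.60 and −0.52). Tlr4 had r = 0.52 and 0.43 with the monocyte sum, and in batch 1 −0.55 and −0.54 with the skeletal muscle and endothelial sums. The highest values of Tlr1 were 0.45 with the neutrophil sum in batch 1 and 0.52 with the plasmacytoid dendritic cell sum in batch 2, and those of Tlr8 were 0.45 (macrophage) and 0.50 (plasmacytoid dendritic cell and T cell). Tlr3 followed none of the 12 lists beyond 0.21 in batch 1, but in batch 2 had 0.49 with the T cell, 0.45 with the plasmacytoid dendritic cell and 0.35 with the neutrophil sum.

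**Figure D5:**
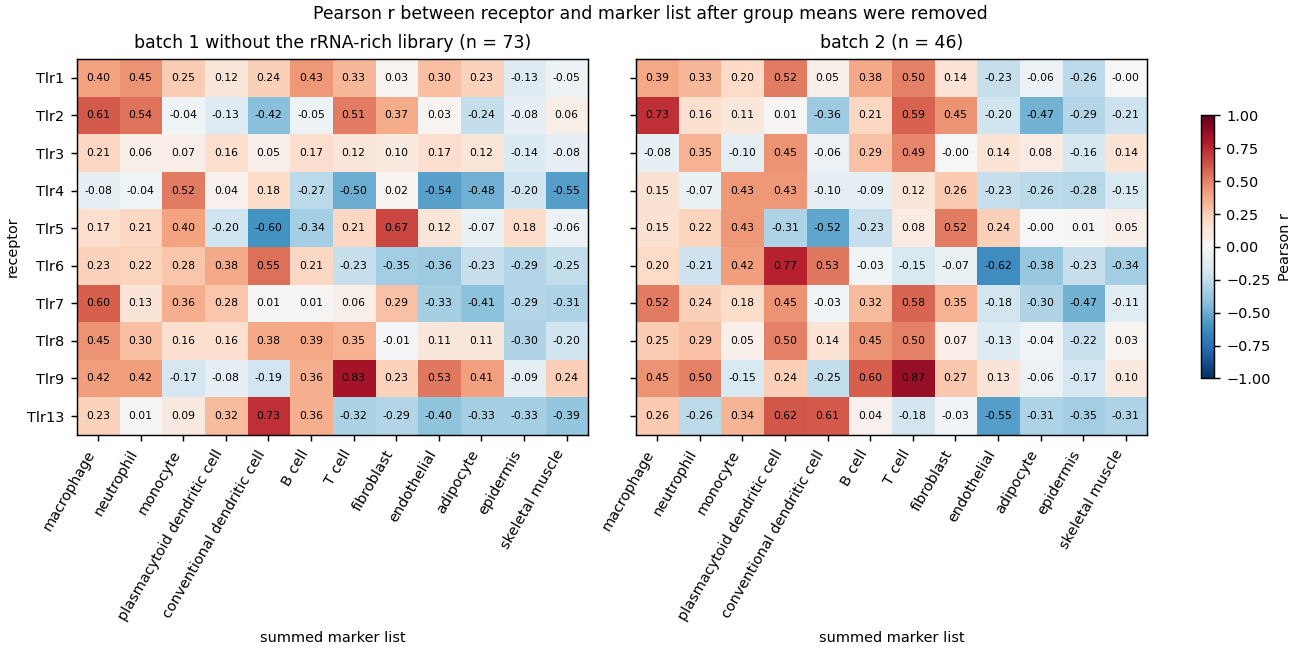
Pearson r between log2 CPM of each receptor (rows) and of 12 summed marker lists (columns) after group means were removed, in batch 1 without the library rich in ribosomal RNA (left) and in batch 2 (right). Red is positive and blue negative; the strongest values are Tlr9 with the T cell list, 0.83 and 0.87.

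Over all 74 batch 1 INs, the 3 genes of 15606 compared that were most like each receptor differed from receptor to receptor. Tlr9 was closest to Limd2 (r = 0.92, and 0.75 in batch 2), Ms4a7 (0.90 and 0.79) and Aif1 (0.88 and 0.85). Tlr2 was closest to Clec4n (0.84 and 0.84), Rab32 (0.81 and 0.78) and Clec4e (0.81 and 0.81). For Tlr5 these were Reck (0.89 and 0.80), Kirrel (0.83 and 0.60) and Sh3d19 (0.82 and 0.79). Tlr1 and Tlr8 were each other's closest gene (0.86 and 0.78), followed by Adap2 and Il10ra for Tlr1 and by Casp1 and Lacc1 for Tlr8. Tlr13 had Cd84 (0.89 and 0.76), Rtn3 (0.88 and 0.62) and Trip12 (0.88 and 0.75). Tlr4 had Gnai3 (0.82 and 0.59), Mob1a and Rlim, and Tlr6 had Htr2b (0.75 and 0.50), Tpd52 and Brox. The closest genes of Tlr7 (Xrn2, Arl1 and Tram1, 0.80 to 0.81) and of Tlr3 (Arhgap15, Rps27l and Rnf170, 0.63 to 0.70) were less alike in batch 2, where r was 0.29 to 0.59 and 0.15 to 0.58. Leaving out the library rich in ribosomal RNA changed at least 1 of the 3 genes for 9 receptors and none for Tlr5. For Tlr6 the closest genes were then Tlr13 and Msr1 (both 0.80). Tlr8 was then closest to Clec4a3 (0.81), ahead of Tlr1 (0.76), and Tlr1 to Gm21188 and Tlr8 (both 0.76). Tlr9 kept Limd2 (0.88), followed by Mdk and Apoe.

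The 6 nonprogressor INs labelled by days after implantation were in batch 1 and are given as values. Tlr9 had 20.3 and 20.8 CPM at 31 days, 10.9 and 15.1 CPM at 38 days and 15.2 and 16.9 CPM at 108 days, where the 20 INs labelled by age ran from 2.62 to 17.2 CPM. Tlr13 had 117 to 157 CPM in the same 6 INs and Tlr3 9.42 to 12.4 CPM.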

How the data were processed

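Total RNA of 120 INs was sequenced in 2 batches. The authors deposited expected counts per gene, a table per batch, estimated with RSEM and given as whole numbers. The processing notes name cutadapt, FastQC, STAR, RSEM, MultiQC and GRCm38, without versions. Reporter rows (5 and 4) were left out.

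The expected counts, rounded to whole numbers, were tested with edgeR 4.0.16 (filterByExpr, TMM, robust quasi-likelihood fit; R 4.3.3) and Benjamini-Hochberg adjustment over all genes tested, with 0.05 as the threshold. DESeq2 1.42.0 was an alternative. Fold changes are log2 with their standard errors. CPM were computed from TMM-scaled library sizes within a batch, and correlations used log2(CPM + 0.5). Exon lengths came from GENCODE M21 and 10 promoter windows from RefSeq. Expected counts carry estimation error for genes that share sequence. All 239 pairs of libraries within a group differed by more than sampling noise. The tests were first run on simulated counts.

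Named genes were all 10 receptors, up to 3 called genes of each pathway list with the smallest p, and the 3 genes most like each receptor among those with a mean of at least 1 CPM in batch 1. Members and lists were chosen with earlier results of these data known. Same-numbered INs of a group came from the same mouse by their labels. Deviations of INs from the same mouse had a mean correlation of −0.02 in NOR, 0.01 in nonprogressors and −0.003 in progressors, against −0.045, −0.033 and −0.015 between mice. The mouse as a block was an alternative, as were other scalings, filters, batches and samples without each mouse. The contrast of 14 with 6 weeks in nonprogressors, the progressor change minus that of the other groups, and, in progressors, leaving out each mouse or the −7 weeks INs were chosen after seeing the data. Several INs of a mouse entered the fits over time as separate samples, so their p-values treat them as independent.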

Additional observations from a re-analysis of the deposited data

Results flagged for a closer look

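Of 230 sets of receptor values from 4 to 8 INs of a group and batch, 9 (3.91%) held an IN that lay far from the others by Dixon's criterion, which chance gives in about 1 of 20 sets. Nonprogressor mouse 4 at 6 weeks had a high Tlr5 (8.69 CPM against 4.01 to 4.45 in the other 3) and a low Tlr6 (8.2 against 11.9 to 12.3 CPM). Nonprogressor mouse 1 had a low Tlr5 at 22 weeks (1.36 against 2.83 to 2.86 CPM) and a high Tlr4 at 18 weeks (55.2 against 39.4 to 41.4 CPM). At 18 weeks nonprogressor mouse 3 had a high Tlr7 (36.9 against 27.1 to 27.7 CPM) and mouse 2 a low Tlr8 (27.3 against 42.1 to 45.1 CPM). NOR mouse 4 had a low Tlr8 at 6 weeks (23.1 against 32.2 to 33.9 CPM). In progressors of batch 2, mouse 7 had a low Tlr3 at −3 weeks (11.1 against 16.8 to 19.0 CPM) and mouse 8 a high Tlr9 at −5 weeks (32.1 against 5.46 to 9.89 CPM).

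The Tlr5 difference with age had opposite signs in the strains, higher at 22 than at 6 weeks in 4 of 4 NOR mice and lower in 4 of 4 nonprogressors. The ages between did not follow one course, with a median of 3.48 CPM in NOR at 18 weeks against 4.52 at 6 weeks, and of 6.65 CPM in nonprogressors at 10 weeks against 4.39 at 6 weeks. The test of the difference gave a log2 value of −1.75 with an adjusted p of 0.0867 in edgeR.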

How the results depend on the processing

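Of 1470 values of single receptors under the alternatives, 1321 kept the side of the threshold and, where they had one, the direction. Another 55 lost the call, 34 gained it and 60 changed sign. The values from F tests are among the 1470 but have no direction, so they could not change sign. The mouse as a replicate block, with the batch term, left the same 5 receptors called between onset and 6 weeks in progressors. In nonprogressors the replicate block left the same 3 at 22 weeks and the same 4 at 14 weeks, and over all 5 ages it called Tlr1 and Tlr3 in place of Tlr3 and Tlr7. Over the progressor times it called 2 (Tlr6 and Tlr13). DESeq2 called 1 receptor between strains (Tlr3), 5 over the progressor times, 2 over NOR ages, 5 over nonprogressor ages, 5 in nonprogressors at 22 weeks and 1 in the strain by age test (Tlr5). Without a batch term 0 were called over the progressor times and 3 at onset (Tlr5, Tlr9 and Tlr13). Within batch 1 there were 2 at onset (Tlr4 and Tlr6) and 1 in nonprogressors at 14 weeks (Tlr3). Within batch 2 there was 1 over the progressor times, Tlr5, which was not among the calls over both batches. Both batches together gave 6 over nonprogressor ages and 5 at 22 weeks. No filter on low counts, or DESeq2 size factors in edgeR, gave 1 over nonprogressor ages, and 1 was called over NOR ages without the library rich in ribosomal RNA. Leaving out each mouse gave 0 to 1 calls between strains, 1 to 3 over the progressor times, 0 to 1 over nonprogressor ages and 1 to 4 at 22 weeks.

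Signs turned in values that had not passed the test, given here on the log2 scale. NOD against NOR at 6 weeks only gave 0.141 for Tlr2, 0.352 for Tlr5, 0.082 for Tlr8 and 0.412 for Tlr9. INs entered separately gave 0.0022 for Tlr4 and 0.077 for Tlr8, and progressor mice against NOR gave 0.069 for Tlr8. Tlr1 in NOR at 22 weeks was −0.011 with DESeq2 and with its size factors, −0.014 without the library rich in ribosomal RNA and −0.046 with the replicate block. Tlr8 in nonprogressors at 22 weeks was −0.059 over both batches and −0.00041 with the replicate block. For progressors against nonprogressors at 6 weeks, the mouse number as a replicate block gave 0.017 for Tlr1, −0.016 for Tlr5, 0.025 for Tlr6, 0.029 for Tlr7 and 0.032 for Tlr13. There, no batch term gave −0.124 for Tlr5, batch 1 gave 0.027 for Tlr1 and 0.013 for Tlr9, and batch 2 gave 0.002 for Tlr3 and −0.073 for Tlr5. Between onset and 6 weeks Tlr7 was 0.02 in batch 1 and Tlr4 was −0.061 in batch 2. In nonprogressors at 14 weeks Tlr4 was 0.263 and Tlr8 0.154 in batch 1, and Tlr6 was −0.029 in batch 2. Leaving out each mouse took values across 0 between strains for Tlr4 (−0.049 to 0.0048) and Tlr8 (−0.031 to 0.036), and in NOR at 22 weeks for Tlr1 (−0.141 to 0.099), Tlr2 (−0.0086 to 0.226) and Tlr8 (−0.253 to 0.025). It also did so in nonprogressors at 22 weeks for Tlr8 (−0.113 to 0.172) and in the strain by age test for Tlr4 (−0.037 to 0.151) and Tlr8 (−0.065 to 0.283). For the progressor change minus the nonprogressor change it did so for Tlr2 (−0.086 to 0.279), Tlr6 (−0.112 to 0.196), Tlr9 (−0.226 to 0.13) and Tlr13 (−0.24 to 0.098). Against the NOR change it did so for Tlr6 (−0.074 to 0.121) and Tlr13 (−0.07 to 0.199). The causes were not tested.

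Counts over all genes also moved. Within batch 1 they were 3526 in place of 8422 at onset, 3647 in place of 7544 over the progressor times and 1099 in place of 6269 in nonprogressors at 14 weeks. Between strains 2085 genes became 408 at 6 weeks only and 1099 with progressor mice only. DESeq2 gave 3509 in place of 1616 over NOR ages, 518 in place of 205 in NOR at 22 weeks, 4745 in place of 2652 over nonprogressor ages and 846 in place of 236 in the strain by age test, where no filter on low counts gave 43. Both batches gave 7277 over nonprogressor ages. Leaving out each mouse gave 21 to 344 in NOR at 22 weeks and 13 to 491 in the strain by age test. With 4 mice, the Tlr13 difference of 0.53 in nonprogressors at 22 weeks did not pass (adjusted p = 0.0647 in edgeR), whereas 0.36 passed in 10 progressors.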
